A study of Homo sapiens with 12 samples.

Results

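The 37 genes described here are reported targets of EWS-FLI1 activation, drawn up from what is known of the fusion in Ewing sarcoma. The list was chosen with earlier results of these data known, so its counts beside all genes are descriptive only. A target was taken as measured where the platform annotation names at least 1 probe set for that symbol alone, and older symbols such as GPR64 for ADGRG2 were counted. By this rule 35 of the 37 had a value, among 19775 genes in all. NR0B1 and EGR2 were not analysed here because the annotation used lists no probe set under these symbols. TC32 and TC71 are established human Ewing sarcoma cell lines, each a single line and so a single genetic background. The 4 groups were TC32 with control solvent, TC32 with mithramycin, TC71 with control solvent and TC71 with mithramycin. The drug dose was 100 nM, RNA was taken at 6 h in every group, and each group had 3 biological replicates with 1 array per replicate.

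EWS-FLI1 joins the amino-terminal part of the RNA-binding protein EWS, encoded by EWSR1, to the DNA-binding ETS domain of FLI1. The fusion binds the ETS core GGAA, and at microsatellites of repeated GGAA it recruits chromatin remodellers that turn the repeats into enhancers of nearby genes. Mithramycin is an antibiotic that binds the minor groove of GC-rich DNA, can displace Sp1 from GC boxes and has been studied as an inhibitor of EWS-FLI1 activity. The comparison addresses how much of the transcript output of known fusion targets changes soon after the drug is added. Levels are log2 values after robust multi-array averaging, so a difference of 1 is a 2-fold change. The averaging sets each level against the rest of its array, and levels of different genes are not compared because probe sets differ in brightness. Because the cells were lysed in bulk, fewer expressing cells and less transcript per cell cannot be told apart.

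Promoter sequence is shown for the 3 targets with the largest falls over both lines and for the 3 with the largest rises that have an entry in the RefSeq promoter table (assembly GRCh38.p14). Here and below, over both lines means the mean of the effects in the lines, which can be called where a single line is not. Each is the 250 bases before the annotated start on the strand of the gene, 5′ to 3′, with every GGGCGG or its reverse complement CCGCCC in capitals. GGGCGG is the GC box, the core of Sp1 sites. BCL11B, a zinc finger transcription factor, lies on the minus strand at chr14:99272198-99272447. PAPPA, a secreted protease, lies on the plus strand at chr9:116153541-116153790. JARID2, a Polycomb cofactor, lies on the plus strand at chr6:15245819-15246068. These 3 fell furthest.
BCL11B: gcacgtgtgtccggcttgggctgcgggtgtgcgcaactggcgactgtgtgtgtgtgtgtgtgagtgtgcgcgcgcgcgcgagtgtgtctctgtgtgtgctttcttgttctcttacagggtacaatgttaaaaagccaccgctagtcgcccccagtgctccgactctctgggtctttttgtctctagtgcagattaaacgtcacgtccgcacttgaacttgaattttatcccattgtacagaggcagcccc
PAPPA: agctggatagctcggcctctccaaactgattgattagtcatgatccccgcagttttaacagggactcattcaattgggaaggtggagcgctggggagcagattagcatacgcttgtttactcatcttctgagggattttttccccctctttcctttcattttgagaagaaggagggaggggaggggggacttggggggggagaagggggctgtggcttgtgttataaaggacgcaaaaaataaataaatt
JARID2: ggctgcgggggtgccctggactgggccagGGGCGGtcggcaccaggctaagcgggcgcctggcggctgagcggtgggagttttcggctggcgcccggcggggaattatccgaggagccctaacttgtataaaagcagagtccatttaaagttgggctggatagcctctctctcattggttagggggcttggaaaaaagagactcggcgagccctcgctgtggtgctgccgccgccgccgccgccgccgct
NPY5R, a neuropeptide Y receptor, lies on the plus strand at chr4:163343642-163343891. PLD2, a phospholipase D, lies on the plus strand at chr17:4806902-4807151. GSTM4, a glutathione transferase, lies on the plus strand at chr1:109655849-109656098. These 3 rose over both lines, although line by line NPY5R was called in TC71 alone and PLD2 in TC32 alone.
NPY5R: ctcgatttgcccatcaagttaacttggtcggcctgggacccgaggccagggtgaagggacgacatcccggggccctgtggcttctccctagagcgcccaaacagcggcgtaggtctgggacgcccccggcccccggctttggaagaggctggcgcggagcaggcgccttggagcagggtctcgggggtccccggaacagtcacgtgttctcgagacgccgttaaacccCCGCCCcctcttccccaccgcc
PLD2: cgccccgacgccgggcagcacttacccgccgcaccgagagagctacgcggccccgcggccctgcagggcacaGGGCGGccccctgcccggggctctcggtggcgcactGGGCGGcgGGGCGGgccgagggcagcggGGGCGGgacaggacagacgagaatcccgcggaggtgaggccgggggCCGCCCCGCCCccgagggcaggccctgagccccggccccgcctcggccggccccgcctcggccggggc
GSTM4: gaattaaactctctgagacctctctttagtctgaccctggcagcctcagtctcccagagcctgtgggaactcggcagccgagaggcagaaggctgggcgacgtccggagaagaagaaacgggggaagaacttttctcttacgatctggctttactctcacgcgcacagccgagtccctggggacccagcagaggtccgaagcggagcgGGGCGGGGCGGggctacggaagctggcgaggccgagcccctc
The stretches from BCL11B and PAPPA held 0 GC boxes, those from JARID2 and NPY5R 1 each, that from GSTM4 2 and that from PLD2 6, counting both strands. Their GC contents were 54.8% for BCL11B, 48.0% for PAPPA, 65.6% for JARID2, 68.0% for NPY5R, 83.2% for PLD2 and 62.4% for GSTM4.

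Across the whole list, 30 of the 37 targets had a promoter entry, and where a gene had several the first listed was read. At least 1 GC box stood in 22 of these 30 stretches (73.3%). The share was 42.3% over all 27305 stretches in the table and 56.3% over the 15384 that belong to measured genes. Among targets that fell over both lines it was 11 of 17 (64.7%), and among those that rose it was 4 of 4. The median GC content was 65.4% in the targets, 58.0% in the whole table and 62.4% in the measured genes. The ETS core GGAA, read on both strands, stood in 27 of the 30 targets (90.0%) and in 92.8% of all stretches. Since nearly every stretch held this short motif, its presence in the window cannot show whether the targets stand apart. The tandem GGAAGGAA, in which GGAA also matches, stood in 1 of the 30, that of CAV1, and in 2.99% of all stretches. These are letter matches in a short window, and distant GGAA microsatellites lie outside it.

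With mithramycin the target list shifted down, but most of the shifts were small. In TC32, 14 of the 35 measured targets fell, 5 rose and 16 were not called (limma, adjusted p under 0.05). Over all genes in TC32, 19.4% fell and 25.6% rose. In TC71, 15 targets fell, 6 rose and 14 were not called, where 16.1% of all genes fell and 19.4% rose. For the mean of the effects in the lines, called the both-line response below, 19 targets fell (54.3%) and 5 rose (14.3%), against 20.9% and 32.9% of all genes. The median log2 change of the targets was -0.12 in TC32, -0.17 in TC71 and -0.16 over both, and the median of all genes was 0.08, 0.07 and 0.08. In the both-line response, 29 of the 35 targets lay within 0.5 log2 of no change. Only BCL11B, PAPPA and JARID2 were at least 2-fold lower, which is 3 of 35, and 2.53% of all genes met that mark. All genes here include dim ones. In a fit of genes with a mean log2 level of at least 6 only, 19 of 30 targets fell and 7 rose in the both-line response. Of 8386 genes in that fit, 3124 fell and 3335 rose. In TC32, 15 of the 30 targets and 3023 genes fell in it, and in TC71 16 targets and 2618 genes.

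Counted line by line, 10 targets fell in TC32 and also in TC71 (28.6%), and 12.7% of all genes did so. They were BCL11B, PAPPA, JARID2, E2F3, KIT, DKK2, LINGO1, VRK1, KDSR and ADGRG2. Only 2 targets, PPP1R1A and GSTM4, rose in both lines, where 13.1% of all genes did so. NKX2-2, NPY1R and ID2 fell in TC32 and rose in TC71 (8.57% of the targets), an opposite pair of calls made for 0.824% of all genes. RBM11 fell and CCK, FCGRT and PLD2 rose with a call in TC32 alone. CAV1, STEAP1, STEAP2, PRKCB and EZH2 fell and NPY5R rose with a call in TC71 alone. The remaining 10 targets, GLI1, LIPI, UPP1, CYP4F22, JPH3, TRPM4, CALCB, MYOM2, ITM2A and TERT, were called in neither line. For 19 targets (54.3%) the treated and control arrays did not overlap in either line, which held for 34.7% of all genes. The shares of all genes in this paragraph include dim ones. They were not counted among genes with a mean log2 level of at least 6 only, and the part of brightness in them was not tested.

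**Figure D1:**
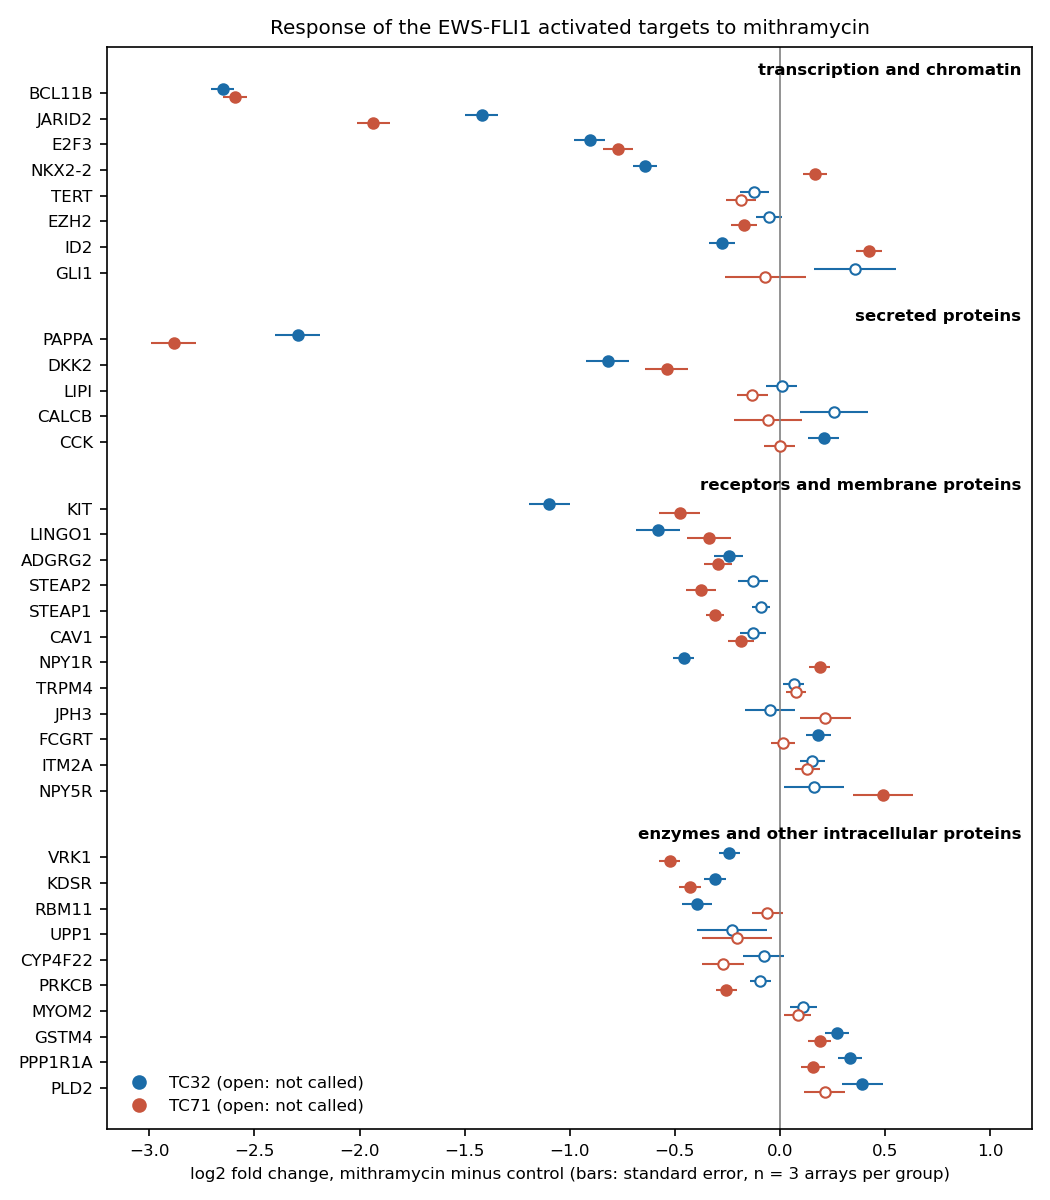
Log2 change with mithramycin (treated minus control, horizontal axis) for each of the 35 measured targets in TC32 and in TC71, with bars for the standard error of the model (3 arrays per group). Filled points were called at an adjusted p under 0.05; BCL11B, PAPPA and JARID2 lie far to the left in both lines, and most other targets lie within 0.5 of zero.

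Among the 8 regulators of transcription and chromatin, 6 fell in the both-line response and 2, GLI1 and ID2, were not called. That count holds NKX2-2, whose effects had opposite signs in the lines. Over all genes, 20.9% fell in the both-line response and 32.9% rose. BCL11B, which directs T cell and neuronal differentiation, stood at 10.51, 10.51 and 10.53 on the TC32 control arrays and at 7.80, 7.93 and 7.86 with mithramycin. The TC71 control arrays read 10.35, 10.41 and 10.38 and the treated ones 7.82, 7.70 and 7.84. Every treated array was therefore far below every control array, and the arrays of the lines lay close together both before and after treatment. The fall was 6.28-fold in TC32 (log2 -2.65 ± 0.06 SE, n = 3 per group, limma adjusted p = 1.8e-10) and 6.03-fold in TC71 (log2 -2.59 ± 0.06 SE, adjusted p = 8.8e-11). The difference between the line effects was 0.06 ± 0.08 SE (adjusted p = 0.74). A further bright probe set of BCL11B changed by -3.09 in TC32 and -2.86 in TC71, and a dim one by -0.56 and -0.18.

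JARID2, a DNA-binding cofactor of Polycomb repressive complex 2, stood at 7.17, 7.02 and 7.26 in TC32 controls and at 5.59, 5.88 and 5.73 with mithramycin. In TC71 it stood at 8.01, 8.08 and 8.11 in controls and at 6.11, 6.12 and 6.17 with mithramycin. The groups did not overlap in either line, and the TC71 controls started higher. The fall was 2.67-fold in TC32 (log2 -1.42 ± 0.08 SE, n = 3 per group, limma adjusted p = 4.9e-08) and 3.82-fold in TC71 (log2 -1.93 ± 0.08 SE, adjusted p = 6.8e-09). A second JARID2 probe set of like brightness fell further, by 2.62 and 3.12, while a dim set changed by 0.02 and -0.14. EZH2, the histone H3 lysine methyltransferase of the same complex, moved little. Its log2 change was -0.05 ± 0.06 SE in TC32 (limma adjusted p = 0.52) and -0.17 ± 0.06 SE in TC71 (adjusted p = 0.047, n = 3 per group). The both-line call of EZH2 (adjusted p = 0.047) was lost in 10 of the 12 fits that left out 1 array.

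E2F3, an activator of S phase genes, fell by 0.91 ± 0.07 (SE) in TC32 and by 0.77 ± 0.07 (SE) in TC71, with limma adjusted p = 9.4e-07 and 5.4e-06 (n = 3 per group). In TC32 its treated arrays stood at 8.10, 8.39 and 8.24 and its controls at 9.17, 9.21 and 9.06. Replicate 2 was thus the least lowered treated array, as it also was for JARID2, DKK2 and LINGO1. TERT, the catalytic subunit of telomerase, was dim, with group means of 4.74 to 6.00. It was called lower in the both-line response (-0.15 ± 0.05 SE, limma adjusted p = 0.022, n = 3 per group) and in neither line alone, and lost that call under 2 of 8 alternative settings. GLI1, the transcriptional effector of Hedgehog signalling, changed by 0.36 ± 0.19 (SE) in TC32 and -0.07 ± 0.19 (SE) in TC71, with treated and control arrays overlapping in TC71. Neither change was called (limma adjusted p = 0.15 and 0.82, n = 3 per group).

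NKX2-2, a homeobox factor of neural patterning used as a diagnostic marker of Ewing sarcoma, moved in opposite directions in the lines. It stood at 9.03, 9.01 and 9.07 in TC32 controls and at 8.45, 8.37 and 8.37 with mithramycin. The TC71 control arrays read 7.14, 7.08 and 7.10 and the treated ones 7.39, 7.24 and 7.20. The arrays did not overlap in either line, but the TC71 step was small. It fell by 0.64 ± 0.06 (SE) in TC32 (n = 3 per group, limma adjusted p = 2.5e-06) and rose by 0.17 ± 0.06 (SE) in TC71 (adjusted p = 0.04). The difference between the line effects was 0.81 ± 0.08 SE (limma adjusted p = 7.5e-05, n = 3 per group). The TC71 rise lost its call under 5 of 10 alternative settings and in 8 of the 12 fits that left out 1 array, while the difference kept its call in every fit run.

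ID2, a dominant inhibitor of basic helix-loop-helix factors, showed the same pattern at a high level. It stood at 12.04, 12.12 and 12.05 in TC32 controls and at 11.76, 11.85 and 11.78 with mithramycin. In TC71 it stood at 11.08, 11.25 and 11.06 in controls and at 11.50, 11.60 and 11.56 with mithramycin. Treated and control arrays were separate in each line, and treatment brought the levels in the lines closer together. It fell by 0.28 ± 0.06 (SE) in TC32 (n = 3 per group, limma adjusted p = 0.0033) and rose by 0.43 ± 0.06 (SE) in TC71 (adjusted p = 0.00019), with a difference of 0.70 ± 0.09 SE (adjusted p = 0.00032). The second ID2 probe set changed by -0.24 in TC32 and 0.43 in TC71.

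**Figure D2:**
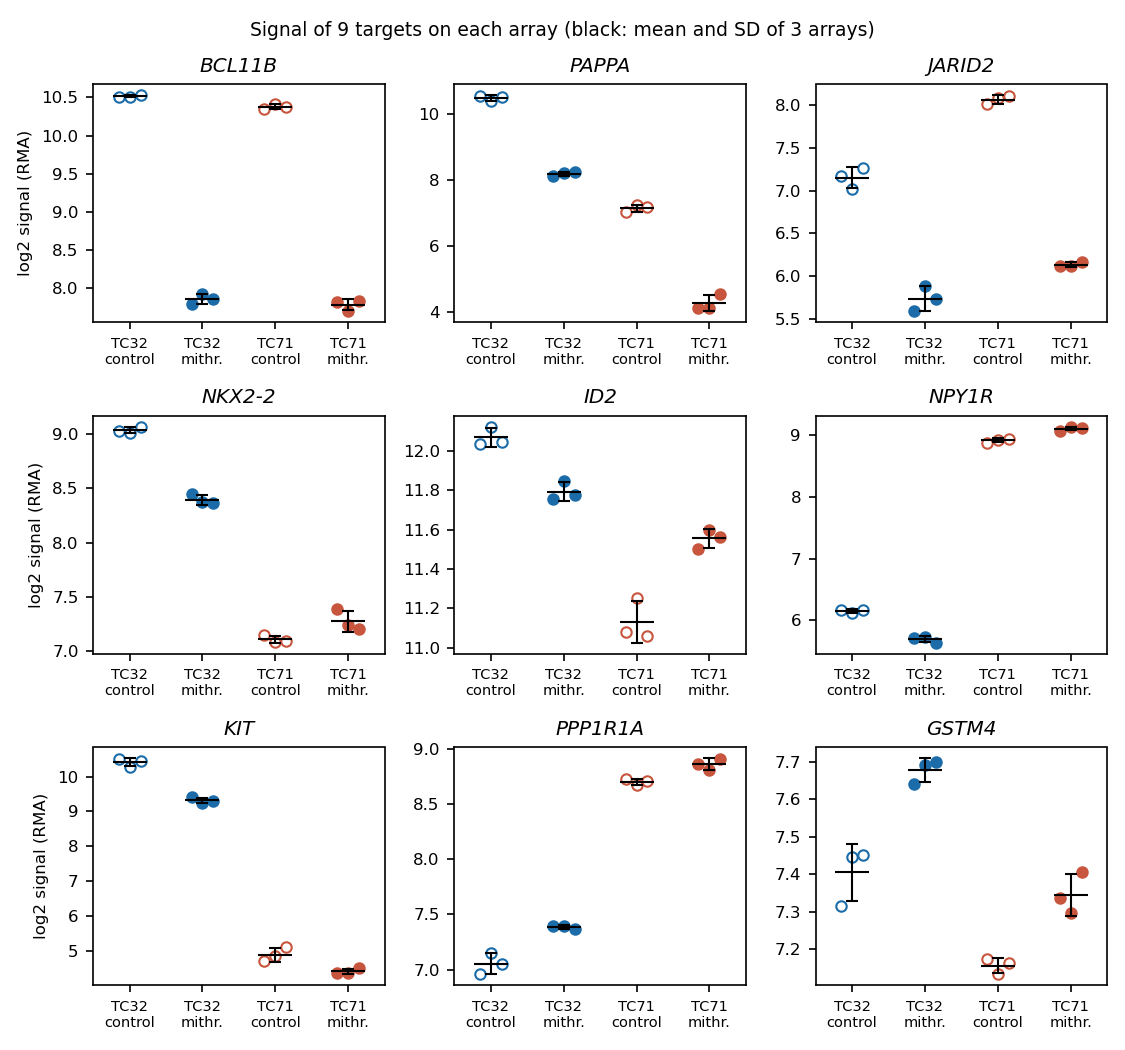
Log2 level on each array (vertical axis) of 9 targets, open points for control and filled points for mithramycin arrays, TC32 in blue and TC71 in red, with black marks for the mean and SD of 3 arrays. The vertical scale differs between panels. Treated arrays of BCL11B, PAPPA and JARID2 lie well below the controls in both lines, while NKX2-2, ID2 and NPY1R are lower in TC32 and higher in TC71.

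Of the 5 secreted products, PAPPA and DKK2 fell in both lines and the other 3 were not called in the both-line response. Of all genes, 12.7% fell in both lines. PAPPA is the metalloprotease that cleaves insulin-like growth factor binding proteins and so frees the growth factor. It stood at 10.56, 10.40 and 10.54 in TC32 controls and at 8.14, 8.21 and 8.26 with mithramycin. The TC71 control arrays read 7.04, 7.25 and 7.18 and the treated ones 4.13, 4.13 and 4.56. The groups were fully apart, and 2 of the 3 treated TC71 arrays lay below the array median, so the size of the TC71 fall is read against dim signal and may be larger than measured. The fall was 4.91-fold in TC32 (log2 -2.29 ± 0.11 SE, n = 3 per group, limma adjusted p = 1.1e-08) and 7.39-fold in TC71 (log2 -2.89 ± 0.11 SE, adjusted p = 2.8e-09). The 5 brightest of its 11 probe sets changed by -1.57 to -2.29 in TC32 and by -1.67 to -2.89 in TC71. The 6 dimmer sets ranged from -1.68 to 0.30 in TC32 and from -0.17 to 0.34 in TC71. The difference between the line effects (-0.59 ± 0.15 SE, limma adjusted p = 0.028, n = 3 per group) changed sign to 0.15 with the mean of all probe sets.

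**Figure D3:**
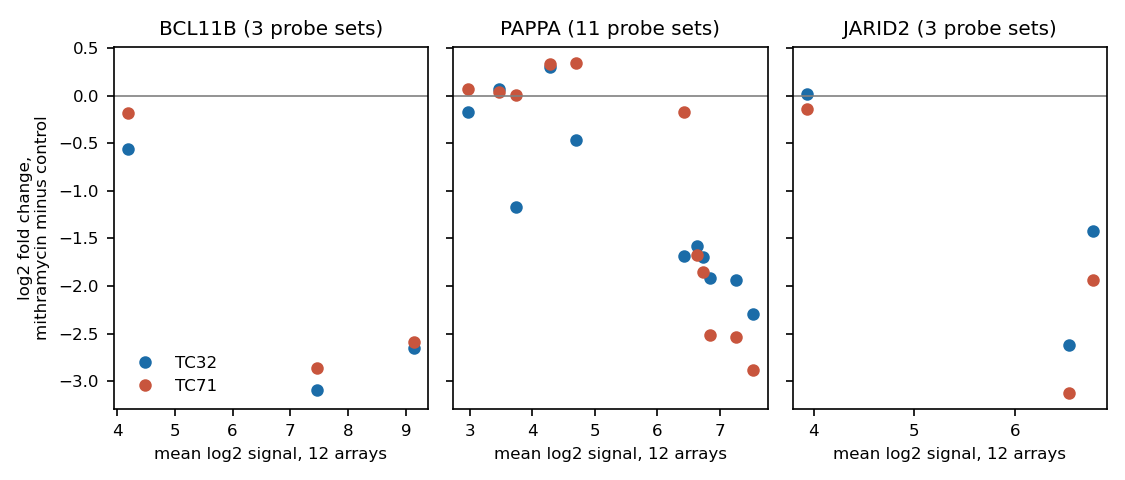
Log2 change with mithramycin (vertical axis) of each probe set of BCL11B, PAPPA and JARID2 against its mean log2 signal over the 12 arrays (horizontal axis), in TC32 and TC71. The 2 brighter sets of BCL11B and of JARID2 and the 5 brightest of PAPPA lie well below zero in both lines. The dim sets of BCL11B and JARID2 lie nearer to it, and the dimmer sets of PAPPA are scattered between -1.68 and 0.34.

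DKK2, a secreted modulator of Wnt signalling, fell by 0.82 ± 0.10 (SE) in TC32 and by 0.54 ± 0.10 (SE) in TC71 (limma adjusted p = 4.2e-05 and 0.0014, n = 3 per group). Its TC32 arrays stood at 6.79, 6.72 and 6.70 in controls and at 5.76, 6.21 and 5.77 with mithramycin, again without overlap. CCK, the precursor of cholecystokinin peptides, rose by 0.21 ± 0.07 (SE) in TC32 (limma adjusted p = 0.038, n = 3 per group), a call lost under 4 of 10 alternative settings and in 4 of the 12 fits that left out 1 array. Its arrays there stood at 11.37, 11.26 and 11.31 in controls and at 11.56, 11.48 and 11.53 with mithramycin. In TC71 the CCK change was -0.00 ± 0.07 SE at a far lower level. LIPI, a lipase of the phosphatidic acid family, and CALCB, a calcitonin gene-related peptide, changed by -0.13 to 0.26 in the lines and were not called.

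Among the 12 receptors and other membrane proteins, 7 fell in the both-line response, 2 rose and 3 were not called. The 7 include NPY1R, whose effects had opposite signs in the lines. Over all genes, 20.9% fell in the both-line response and 32.9% rose. KIT, the receptor tyrosine kinase for stem cell factor, stood at 10.50, 10.28 and 10.44 in TC32 controls and at 9.40, 9.24 and 9.30 with mithramycin. In TC71 it stood at 4.69, 4.86 and 5.10 in controls and at 4.36, 4.35 and 4.50 with mithramycin. The groups were apart in each line, and 2 of the 6 TC71 arrays were below the array median. KIT fell by 1.10 ± 0.10 (SE) in TC32 (n = 3 per group, limma adjusted p = 2.4e-06) and by 0.48 ± 0.10 (SE) in TC71 (adjusted p = 0.0024). The difference was 0.62 ± 0.14 SE (adjusted p = 0.014), measured against a TC71 level near the array median. It lost its call with the beta-actin term (limma adjusted p = 0.0844).

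LINGO1, a leucine-rich repeat protein that restrains myelination, fell by 0.58 ± 0.10 (SE) in TC32 and by 0.34 ± 0.10 (SE) in TC71 (limma adjusted p = 0.00072 and 0.024, n = 3 per group), and the TC71 call was lost under 3 of 10 alternative settings. ADGRG2, an adhesion G protein-coupled receptor, fell by 0.24 ± 0.07 (SE) and by 0.30 ± 0.07 (SE), with limma adjusted p = 0.011 and 0.0045. CAV1, the scaffold of caveolae, was called in TC71 with a fall by 0.18 ± 0.06 (SE, limma adjusted p = 0.038, n = 3 per group), and that call was lost under 6 of 10 alternative settings. A second CAV1 probe set of like brightness changed by 0.002 in TC32 and -0.08 in TC71, so the size of the fall depends on the probe set. FCGRT, the heavy chain of the neonatal Fc receptor, rose by 0.18 ± 0.06 (SE) in TC32 (limma adjusted p = 0.024, n = 3 per group) and changed by 0.01 ± 0.06 (SE) in TC71. The FCGRT call was lost under 3 of 9 alternative settings and in 4 of the 12 fits that left out 1 array. ITM2A, a type II membrane protein, was called higher in the both-line response (0.14 ± 0.04 SE, limma adjusted p = 0.013) and in neither line, and that call was lost under 4 of 9 alternative settings. The channel TRPM4 and the junctophilin JPH3, which was below the array median on all 12 arrays, were not called.

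STEAP1 and STEAP2, metalloreductase family proteins of the cell membrane, were called in TC71. STEAP1 stood at 12.20, 12.19 and 12.18 in TC71 controls and at 11.85, 11.90 and 11.89 with mithramycin. STEAP1 fell by 0.31 ± 0.04 (SE, limma adjusted p = 0.00017) and STEAP2 by 0.38 ± 0.07 (SE, adjusted p = 0.0014), with n = 3 per group. In TC32 the changes were -0.09 ± 0.04 SE and -0.13 ± 0.07 SE and were not called. The difference between lines was called for STEAP1 (-0.22 ± 0.06 SE, limma adjusted p = 0.048) and not for STEAP2 (-0.25 ± 0.10 SE, adjusted p = 0.17). The STEAP1 difference lost its call under 5 of 9 alternative settings and in 11 of the 12 fits that left out 1 array.

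Among the neuropeptide Y receptors, NPY1R stood at 6.17, 6.11 and 6.16 in TC32 controls and at 5.70, 5.73 and 5.63 with mithramycin. The TC71 control arrays read 8.88, 8.93 and 8.95 and the treated ones 9.08, 9.14 and 9.12. The groups did not overlap in either line, with opposite order. NPY1R fell by 0.46 ± 0.05 (SE) in TC32 (n = 3 per group, limma adjusted p = 1.2e-05) and rose by 0.19 ± 0.05 (SE) in TC71 (adjusted p = 0.0099), with a difference of 0.65 ± 0.07 SE (adjusted p = 0.00012). NPY5R changed by 0.16 ± 0.14 (SE) in TC32, where all 6 arrays were below the array median. In TC71 it rose by 0.49 ± 0.14 (SE, limma adjusted p = 0.017, n = 3 per group). That call was lost with the replicate block, with the beta-actin term and in 3 of the 12 fits that left out 1 array, and its both-line call was lost under 4 of 8 alternative settings. The TC71 call of NPY1R was lost under housekeeping centring and with the beta-actin term.

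Of the 10 enzymes and other intracellular proteins, 4 fell in the both-line response, 3 rose and 3 were not called. Over all genes, 20.9% fell and 32.9% rose, so the share of rises here was near that of all genes. Of 8386 genes in the fit with a mean log2 level of at least 6, 3124 fell and 3335 rose. VRK1, a kinase of chromatin and mitosis, fell by 0.24 ± 0.05 (SE) in TC32 and by 0.52 ± 0.05 (SE) in TC71 (limma adjusted p = 0.0019 and 5.5e-06, n = 3 per group), a called difference of -0.28 ± 0.07 SE (adjusted p = 0.024). KDSR, a reductase of sphingolipid synthesis, fell by 0.31 ± 0.05 (SE) and by 0.43 ± 0.05 (SE), with limma adjusted p = 0.00051 and 4.8e-05 (n = 3 per group). Other bright KDSR probe sets changed by 0.10 and 0.14 in TC32 and by -0.18 and -0.09 in TC71, so the TC32 fall rests on the brightest set, and with the mean of all probe sets KDSR stayed called in TC71 and not in TC32. PRKCB, protein kinase C beta, was called in TC71 with a fall by 0.25 ± 0.05 (SE, limma adjusted p = 0.0016), and RBM11, a splicing regulator, in TC32 with a fall by 0.40 ± 0.07 (SE, adjusted p = 0.00083, n = 3 per group). The 6 PRKCB probe sets ranged from -0.50 to 0.40 in TC71, the highest value from a dim set. Its TC71 call was lost under 2 of 10 alternative settings, and PRKCB was called lower in TC32 under 2 of 10.

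PPP1R1A, an inhibitor of protein phosphatase 1, was called higher in both lines, in TC71 only just. It stood at 6.96, 7.15 and 7.05 in TC32 controls and at 7.40, 7.39 and 7.37 with mithramycin. In TC71 it stood at 8.72, 8.67 and 8.71 in controls and at 8.86, 8.80 and 8.91 with mithramycin. Each treated array was above each control array of its line. The rise was 0.33 ± 0.06 SE in TC32 (n = 3 per group, limma adjusted p = 0.00051) and 0.16 ± 0.06 SE in TC71 (adjusted p = 0.049). Its second probe set went the other way, by -0.33 and -0.29, so the direction depends on the probe set. The TC71 call was lost under 7 of 10 alternative settings.

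GSTM4, a glutathione S-transferase, stood at 7.32, 7.45 and 7.45 in TC32 controls and at 7.64, 7.69 and 7.70 with mithramycin. The TC71 control arrays read 7.17, 7.13 and 7.16 and the treated ones 7.34, 7.30 and 7.41. Groups were apart in both lines by a small step. The rise was 0.27 ± 0.05 SE in TC32 (n = 3 per group, limma adjusted p = 0.0016) and 0.19 ± 0.05 SE in TC71 (adjusted p = 0.018), and its second probe set changed by 0.16 and 0.39. The TC71 call was lost under 2 of 9 alternative settings. GSTM4 belongs to a family of near-identical genes whose transcripts probe sets can share. PLD2 rose by 0.39 ± 0.10 (SE, limma adjusted p = 0.0057) in TC32 and changed by 0.21 ± 0.10 (SE, adjusted p = 0.11) in TC71. The uridine phosphorylase UPP1, the cytochrome CYP4F22 and the sarcomere protein MYOM2 ranged from -0.27 to 0.11 and were not called. CYP4F22 lay close to the threshold, with limma adjusted p = 0.0505 in TC71 and 0.053 in the both-line response. It was called lower in TC71 under 5 of 10 alternative settings and in the both-line response under 6 of 9.

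The responses of the lines differed for 8 of the 35 targets. The TC71 effect was lower than the TC32 effect for JARID2, PAPPA, VRK1 and STEAP1 and higher for NKX2-2, ID2, NPY1R and KIT, 11.4% of the targets in each direction. Over all genes, 3.72% were lower and 6.27% higher. The shares were closer in the fit of genes with a mean of at least 6 only. There 4 of 30 targets were lower and 5 higher, against 765 and 1244 of 8386 genes. For JARID2 the difference was -0.52 ± 0.11 SE (limma adjusted p = 0.012, n = 3 per group). It stayed below zero in all alternatives but lost its call in 3 of 9.

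Before treatment the lines already differed widely in these targets. Of the 35, 15 were lower and 15 higher in TC71 controls than in TC32 controls (42.9% each), where 24.8% of all genes were lower and 26.7% higher. These shares too were closer in the fit of genes with a mean of at least 6 only. In it 15 of 30 targets were lower and 12 higher, against 3178 and 3693 of 8386 genes. The controls were at least 2-fold apart for 20 of the 35 targets and for 13.4% of all genes. CCK was 93.2-fold lower in TC71 (log2 -6.54 ± 0.07 SE, n = 3 per group, limma adjusted p = 2.3e-14) and KIT 46.2-fold lower (log2 -5.53 ± 0.10 SE, adjusted p = 5.3e-13). UPP1 and PAPPA were 12.1-fold and 10.1-fold lower in TC71. CALCB was 32.9-fold higher in TC71 (log2 5.04 ± 0.16 SE, limma adjusted p = 6.4e-11, n = 3 per group), DKK2 6.99-fold and NPY1R 6.86-fold higher. UPP1 was below the array median on all 6 TC71 arrays and CALCB on all 6 TC32 arrays, and the TC71 control means of CCK and KIT, 4.77 and 4.88, were close to the array median. The ratios of these 4 targets are therefore set against dim signal and may be larger than measured. PRKCB, TRPM4, E2F3, BCL11B and JPH3 were the 5 targets not called between the controls. These control arrays also enter the drug responses, so starting level and response are not independent measurements.

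**Figure D4:**
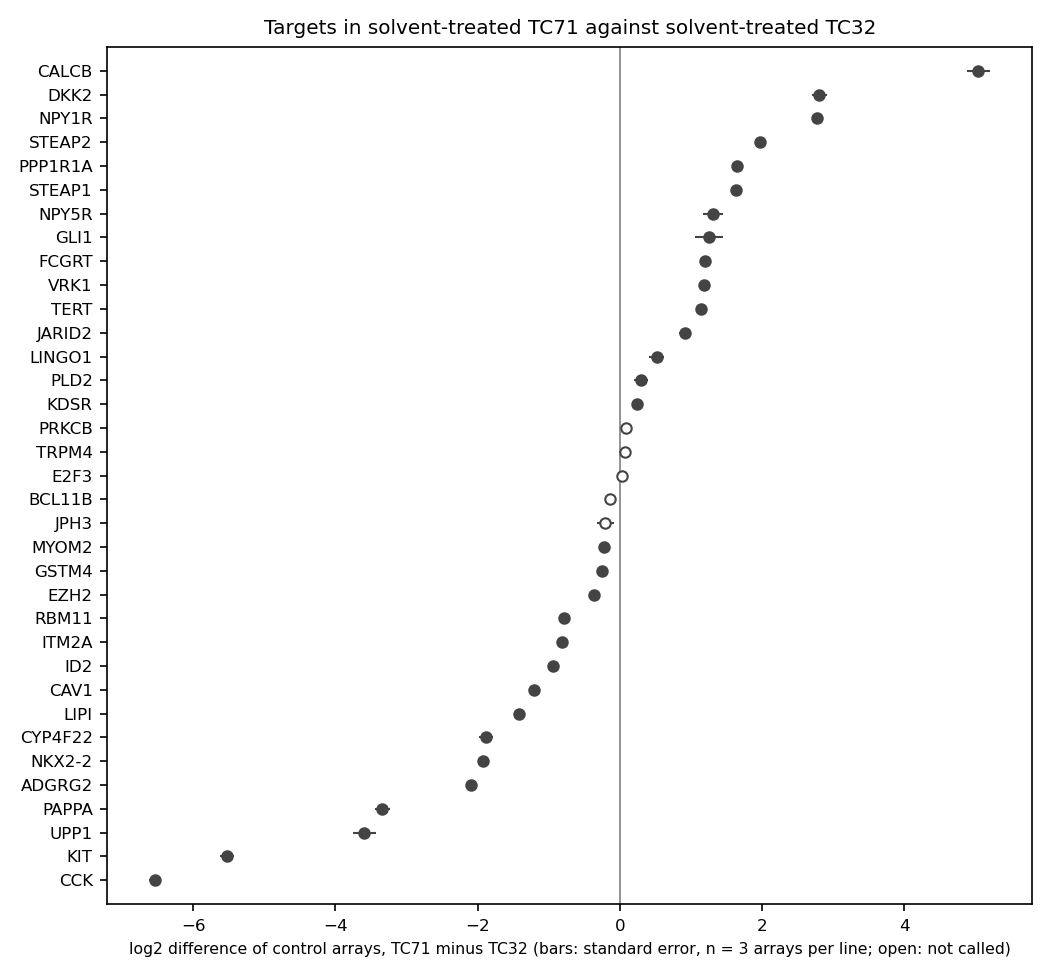
Log2 difference between control arrays, TC71 minus TC32 (horizontal axis), for each measured target, with bars for the standard error of the model (3 arrays per line) and open points for targets not called. CCK, KIT, UPP1 and PAPPA lie furthest to the left and CALCB, DKK2 and NPY1R furthest to the right.

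Some targets are neighbours in the genome. In the RefSeq gene table, STEAP1 and STEAP2 on chromosome 7, NPY1R and NPY5R on chromosome 4, LIPI and RBM11 on chromosome 21, and VRK1 and BCL11B on chromosome 14 follow each other among protein-coding genes. STEAP1 and STEAP2 had like values, with falls by 0.31 and 0.38 in TC71 and both higher in TC71 controls, by 1.63 and 1.97. BCL11B and VRK1 differed widely in size, falling by 2.65 and 0.24 in TC32 and by 2.59 and 0.52 in TC71. RBM11 fell by 0.40 in TC32 while LIPI changed by 0.01, and neither was called in TC71 (-0.06 and -0.13). NPY1R fell by 0.46 in TC32 while NPY5R changed by 0.16, and both rose in TC71, by 0.19 and 0.49. Between the controls, NPY1R and NPY5R were both higher in TC71 (2.78 and 1.31) and LIPI and RBM11 both lower (-1.42 and -0.79).

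The parent genes of the fusion were read beside the targets, although their probe sets do not separate the fusion from the normal alleles with certainty. FLI1 stood at 8.15, 8.22 and 8.05 in TC32 controls and at 7.20, 7.71 and 7.42 with mithramycin. In TC71 it stood at 8.30, 8.46 and 8.35 in controls and at 8.11, 8.09 and 8.12 with mithramycin. Treated arrays were below controls in each line. FLI1 fell by 0.70 ± 0.10 (SE) in TC32 (n = 3 per group, limma adjusted p = 0.00017) and changed by -0.27 ± 0.10 (SE) in TC71 (adjusted p = 0.067), and the difference was not called (0.43 ± 0.15 SE, adjusted p = 0.092). Both readings depend on the setting. FLI1 was called lower in TC71 under 4 of 10 alternative settings and in 2 of the 12 fits that left out 1 array. The difference was called under 3 of 9 alternative settings and in 1 of those 12 fits. The next brightest FLI1 sets changed by -0.86 and -0.77 in TC32 and by -0.19 and -0.08 in TC71. Its dim sets changed by 0.02 to 0.22 and by -0.08 to 0.15. The part of the FLI1 change in the target changes was not tested. EWSR1, by its brightest set, changed by 0.11 ± 0.06 (SE) in TC32 and -0.07 ± 0.06 (SE) in TC71 and was not called. Its other sets ranged from -0.56 to 0.18 in TC32 and from -0.37 to 0.16 in TC71, so its reading depends on the probe set.

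A second list of 23 reported targets of the fusion, of which 22 were measured, gave a comparison from the same pathway. This list was also chosen with earlier results of these data known. In it 15 genes fell in TC32 and 13 in TC71, and in the both-line response 14 fell and 1 rose. The shares of all genes were those given above, 19.4% and 16.1% lower in the lines and 20.9% lower and 32.9% higher over both. In the fit of genes with a mean of at least 6 only, 15 of 19 from this list fell over both lines, against 3124 of 8386 genes. The median of the 22 was -0.47 in TC32, -0.26 in TC71 and -0.48 over both. No test compared this list with the 35 targets. The changes of SOX6, a neural and cartilage transcription factor, were -1.67 in TC32 and -1.79 in TC71, and its probe sets ranged up to 0.82 in the both-line response. SLCO5A1, an organic anion transporter family gene, fell by 1.69 and by 1.58. PAX7, a paired box factor of muscle stem cells, fell by 2.0 in TC71, where its controls stood at 8.70 to 8.82. In TC32 all 6 of its arrays were below the array median, and no size is read from them. The other PAX7 probe set changed by -0.27 in TC71. The rise was that of STYXL1, a pseudophosphatase, at 0.15 ± 0.04 SE (limma adjusted p = 0.01).

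The identity and quality of the arrays were read once for all targets. CD99, FLI1, NKX2-2, STEAP1 and LIPI, markers of Ewing sarcoma, were above the array median on all 12 arrays. Of the 11 measured blood, epithelial and endothelial genes, 8, among them PTPRC, EPCAM, CDH1 and CDH5, were below it on all 12. ESRP1 and CLDN4 were below it on 10 arrays and PECAM1, which ranged from 3.60 to 5.29, on 6. The summed level of the 5 measured Ewing markers, as a mean over markers, ranged from 9.47 to 9.50 in TC32 controls, 9.15 to 9.28 in TC32 with mithramycin, 8.94 to 8.99 in TC71 controls and 8.85 to 8.89 in TC71 with mithramycin. The beta-actin difference, the 3′ minus the 5′ control set and a sign of RNA quality, was 1.45 ± 0.48 (SD, n = 3) in TC71 controls and 0.88 ± 0.10 (SD, n = 3) with mithramycin. It was 0.71 ± 0.04 (SD, n = 3) and 0.60 ± 0.08 (SD, n = 3) in TC32. TC71 control replicate 1 had the highest beta-actin difference, 2.0. Without this array, 12 targets fell in TC71 and 3 rose, and 17 fell in the both-line response. Of all genes, 2958 then fell and 3204 rose in TC71, and 4031 fell in the both-line response. With a beta-actin term in the model, 12 targets fell in TC71 and 1 rose, and over all genes the TC71 counts went from 3190 to 2461 lower and from 3828 to 2158 higher. The spread between replicates may be technical as well as biological, and 3 arrays per group limit the precision of every value.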

How the data were processed

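RNA from 12 samples was hybridised to 1-colour oligonucleotide arrays. The deposited log2 values come from robust multi-array averaging (RMA), per the submitters' processing notes, and RMA equalises the distribution of probe values between arrays before summarizing, so that shifts shared by most genes are largely removed. For its version and settings, no source used here gives a value.

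Of 54675 probe sets, the platform annotation gave 41091 a single gene symbol and 1801 several, which were not used, 11721 were unnamed here and 62 were controls. Symbols were updated by Entrez identifier (41037 sets matched). Each of 19775 genes was represented by its brightest set over the 12 arrays, with no filter on low values. Arrays of a group correlated at 0.9948 or above. One limma 3.58.1 model (R 4.3.3) with a mean per group gave the response in TC32, in TC71, their mean, their difference (TC71 minus TC32) and the control contrast. Adjusted p-values are two-sided, Benjamini-Hochberg over all genes of a contrast, called under 0.05. The fitting was tested on simulated data.

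All members are named. Array values are given for members called the same way in both lines with a both-line change of at least 1 log2, the 5 with the largest called line difference and those called higher in both lines, and for a few others to show spread, chosen after their values were seen. The 3 further targets with the largest called change each way are named. The members and lists were chosen with earlier results of these data known. Alternatives were other probe set rules, a minimum mean of 6, renormalization, centring on housekeeping or hybridization control sets, a replicate block, array weights, a beta-actin covariate, each line alone and leaving out each array.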

Additional observations from a re-analysis of the deposited data

Results flagged for a closer look

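8 targets had a called difference between the line effects (TC71 effect minus TC32 effect, log2 scale, limma interaction). The difference was 0.81 for NKX2-2, 0.702 for ID2 and 0.647 for NPY1R, whose effects had opposite signs in the lines. It was 0.62 for KIT, which fell further in TC32. It was -0.591 for PAPPA, -0.515 for JARID2, -0.283 for VRK1 and -0.217 for STEAP1, whose falls were larger in TC71. With the beta-actin difference in the model, 3 of the 35 differences were called higher and 1 lower, against 796 and 409 of 19775 genes. The STEAP1 difference lost its call in 11 of 12 fits that left out 1 array, that of PAPPA in 6 and that of VRK1 in 5. The KIT difference lost its call with the beta-actin difference in the model, and that of JARID2 under 3 of 9 alternative settings. Groups of 3 arrays were not tested for single outlying arrays.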

How the results depend on the processing

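The count of targets that fell over both lines, 19, stayed within 1.5 times under every alternative (13 to 22, the 13 among 25 measured) and was 17 to 20 with an array left out. Without _x_at and _s_at probe sets, which leaves 25 targets, 9 fell and 2 rose in TC32, 9 fell and 1 rose in TC71, 3 rose over both, and 2 and 1 line differences were lower and higher. Centred on housekeeping genes, 3 rose in TC32, 2 in TC71 and 3 over both. Over all genes, rises went with it from 5060 to 2890 in TC32, from 3828 to 1821 in TC71 and from 6500 to 3304 over both. Centred on hybridization controls, 0 rose in TC32, 9 fell in TC71, and 0 and 7 differences were lower and higher. Over all genes, TC32 rises then went from 5060 to 1156 and TC71 falls from 3190 to 2139. Lower differences went from 736 to 190 and higher ones from 1239 to 2531. That centring moved the median of all genes from 0.08 to -0.07 in TC32, from 0.07 to 0.15 in TC71 and from -0.02 to 0.22 in the difference. Housekeeping centring moved the median of the control contrast from -0.03 to 0.19. Of all called genes over both lines, 61.1% were higher, 37.8% with housekeeping and 48.7% with hybridization control centring. With the beta-actin covariate 1 target rose in TC71, 3 over both, and 1 difference was lower. Over all genes with that covariate, 2158 rose in TC71, 4811 rose over both and 409 differences were lower. With the mean of all probe sets 2 differences were lower among the targets and 646 among all genes.

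Same-numbered deviations from the group means correlated at 0.08, 0.24 and 0.04 in TC32 and at -0.07, -0.02 and -0.01 in TC71. Different-numbered ones ranged from -0.19 to 0.12 in TC32 and from -0.03 to 0.05 in TC71. Pairing by replicate number was thus not seen in TC71 and is not settled in TC32. With the replicate block 3 targets rose in TC71 and 2 differences were lower, and the control contrast was not fitted with it. Over all genes, 3689 rose in TC71 with the block and 591 differences were lower. Leaving out 1 array gave 14 falls and 3 to 6 rises in TC32 (3 without TC32 control replicate 2), 12 to 16 falls and 2 to 6 rises in TC71 (2 without TC71 control replicate 2, 3 without TC71 control or mithramycin replicate 1), 5 to 7 rises over both, and 1 to 5 lower and 4 to 7 higher differences (7 without TC32 mithramycin replicate 2).

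Signs turned for the STEAP1 difference (0.0206 with hybridization control centring). With the mean of all probe sets they turned for KDSR in TC32 (0.00593), the PAPPA difference (0.155) and PPP1R1A in TC71 (-0.0652) and over both (-0.0307). Without _x_at and _s_at sets JARID2 in TC32 was 0.0164, read from its dim set. Further targets that rose were 2 in TC32, 1 in TC71 and 3 over both with the mean of all sets, 1 in TC71 with a minimum mean of 6, 2 in TC71 and 2 over both after renormalization, and 0 in TC32 and 0 over both under either centring. They were 1 to 2 over both with an array left out. Other causes were not tested. Background correction and scan batch could not be varied, since scanner files were not used here.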
